A study of Homo sapiens with 6 samples.

Results

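The human collagen genes were followed in differentiated SH-SY5Y cells, a neuroblastoma line that can be driven towards a neuron-like state, in 3 libraries labelled Tau (SH_tau) and 3 libraries labelled control (SH_ctrl). Members were every row of the count table whose symbol was COL, a type number, A and a chain number, and 44 of 58395 rows met this pattern. SH_tau cells had been transfected with a plasmid for the Tau isoform 0N4R and SH_ctrl cells with the empty plasmid. Both groups were then differentiated, first over 5 days in 10 µM retinoic acid and next over 15 days in 50 ng/mL BDNF without serum. The transfected cells were not described as a selected or clonal line, and no label says whether the 3 replicates of a group came from separate cultures, so the p-values below measure only the spread between these samples.

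Collagens are secreted proteins whose chains wind around each other into a long helix. The chains of a type are encoded by separate genes, are hydroxylated and folded in the endoplasmic reticulum, and are trimmed and cross-linked outside the cell. Fibrillar collagens form the banded fibrils of skin, bone and cartilage, FACIT collagens sit on the surface of those fibrils, type IV collagens form the sheet of basement membranes, type VI collagens form beaded filaments, and transmembrane collagens stay anchored in the plasma membrane. In nervous tissue, collagens are known mainly from vascular basement membranes, meninges and the sheaths of peripheral nerves.

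The libraries held 27945481 to 31706415 reads assigned to genes, with 23632 to 24099 genes detected. MAPT, the gene for Tau, was measured first because it is the overexpressed gene. It stood at 34.6, 32.6 and 34.6 CPM (read counts scaled to library size, after TMM scaling) in the libraries labelled Tau, against 34.8, 51.9 and 41.6 CPM in the libraries labelled control. All 3 SH_tau values lay below the lowest SH_ctrl value. The log2 fold change of SH_tau over SH_ctrl was -0.33 (SE 0.18, edgeR adjusted p = 0.239), or -0.55 with the GC trend described below removed (edgeR adjusted p = 0.0985). The count table therefore does not show, as RNA, the overexpression that the study describes, and every direction below is that of the libraries labelled Tau. The study also measured Tau protein by Western blot, which these counts cannot address. Mitochondrial genes took 45.8%, 57.8% and 53.8% of reads in SH_tau and 45.6%, 30.5% and 45.6% in SH_ctrl. Within each library, the deviation of genes from their mean over libraries rose with GC content in SH_tau (Spearman rho 0.45, 0.27 and 0.34), whereas rho was -0.54, -0.38 and 0.12 in SH_ctrl. Noradrenergic neuroblastoma markers were abundant in every library (summed 2888 to 3255 CPM in SH_tau, 3433 to 4429 CPM in SH_ctrl), although TH, the rate-limiting enzyme of catecholamine synthesis, was too low to be tested.

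Of the 44 collagen genes, 15 were expressed in SH_ctrl, here meaning at least 0.5 CPM in all 3 SH_ctrl libraries. They comprised COL1A1, COL3A1 and COL11A2 among the fibrillar genes, COL4A1 and COL4A2 of the basement membrane, the FACIT genes COL9A2, COL9A3 and COL16A1, the beaded filament genes COL6A1 and COL6A2, and the transmembrane gene COL17A1. Outside these classes were COL18A1, COL8A2, COL7A1 and COL26A1. Levels per gene length, as deposited in RPKM (reads scaled to gene length and library total), were led in SH_ctrl by COL6A2 (14.1 ± 3.07, mean ± SD, n = 3) and COL6A1 (10.4 ± 1.73). COL18A1 followed at 3.14 ± 0.791 RPKM and COL4A2 at 2.08 ± 0.237 RPKM. Beneath them COL11A2 (1.54 ± 0.465), COL4A1 (1.47 ± 0.198), COL3A1 (1.37 ± 0.138) and COL16A1 (1.06 ± 0.38) had RPKM values whose order was within their spread. The same held for COL9A3, COL7A1, COL9A2 and COL26A1, with SH_ctrl means of 0.853 to 0.974 RPKM. COL8A2, COL17A1 and COL1A1 were the lowest of the 15, at 0.249, 0.162 and 0.143 RPKM.

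The threshold of 0.5 CPM divided genes of near-equal level. COL8A2 was just inside it, with 0.614 CPM in its lowest SH_ctrl library, while COL5A1, COL5A2 and COL23A1 were just outside, with 0.496, 0.477 and 0.448 CPM in theirs. No read was assigned in any library to 9 collagen genes (COL4A3, COL4A5, COL4A6, COL6A5, COL14A1, COL21A1, COL10A1, COL8A1 and COL25A1). A count of 0 allows up to 3 reads, which is 0.0708 to 0.126 CPM in these libraries, for counting error only. A further 14 genes had 1 to 93 reads over the 6 libraries and were too low to be tested, which left 21 tested genes.

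Among the 21 tested collagen genes, 14 were called higher in SH_tau and none was called lower. A call required an edgeR adjusted p below 0.1 together with a log2 fold change beyond 0.5 in either direction. Across all 16778 tested genes, 9.37% were called higher and 8.42% lower by the same rule. The median log2 fold change was 1.07 over the tested collagen genes and -0.03 over all tested genes, and 20 of the 21 had a positive value, although COL3A1, COL9A3, COL16A1, COL17A1 and COL27A1, none of them called, were negative in at least 1 alternative fit. The 21 genes and the 14 calls include COL22A1 and COL9A1, which the SH_ctrl libraries alone would not have passed through the filter on low counts. Of the 15 collagen genes expressed in SH_ctrl, 11 were called higher, whereas 8.07% of all tested genes that met this expression rule were. In CPM after TMM scaling, every SH_tau library lay above every SH_ctrl library in 13 of the 14 called genes. This was the case for 16.1% of all tested genes. COL7A1 was the exception. In deposited RPKM, COL6A1 and COL26A1 overlapped between groups and COL7A1 did not. Summed over all 44 genes, collagen took 444, 438 and 436 CPM in SH_tau, against 206, 172 and 294 CPM in SH_ctrl. The SH_tau sums were nearly equal, the SH_ctrl sums were not, and the ratio of the group means was 1.96. Without TMM scaling, in deposited RPM (reads scaled to the library total), the ratio was 1.59 (473, 336 and 375 RPM in SH_tau, 210, 230 and 305 RPM in SH_ctrl). In bulk RNA, a change in the share of cells that express a gene and a change in RNA per cell cannot be told apart.

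The count of 14 rested on SH_ctrl replicate 1. Without it only COL22A1 and COL9A2 were called, although the median log2 fold change of the collagen genes was still 1.002, and the share of all tested genes called higher was then 1.05%. After removal of the GC trend within each library, 11 collagen genes were called higher and none lower (6.55% and 4.11% of all tested genes), with a collagen median of 0.70. The 3 genes that lost the call were COL6A1, COL7A1 and COL26A1. When the mitochondrial share entered the model, 9 were called higher, as were 4.30% of all tested genes. The mitochondrial share was higher in every SH_tau library than in any SH_ctrl library, so this fit cannot fully separate it from the group.

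**Figure D1:**
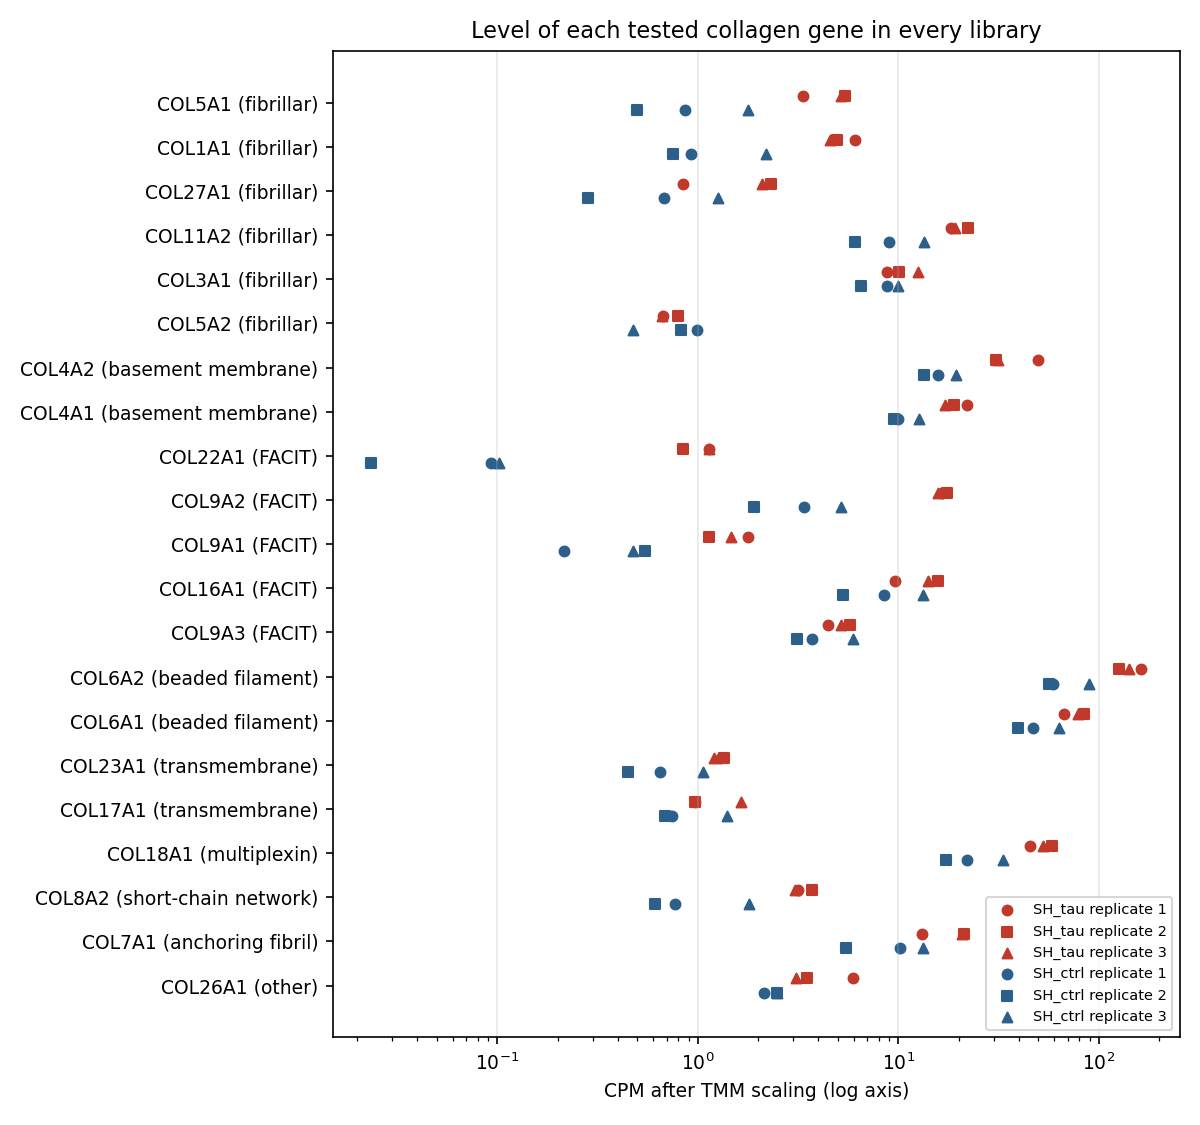
CPM after TMM scaling (log axis) of the 21 tested collagen genes, grouped by class, with a point for each of the 3 SH_tau (red) and 3 SH_ctrl (blue) libraries. Levels ran from under 0.1 CPM for COL22A1 in SH_ctrl to 163 CPM for COL6A2 in SH_tau, and SH_ctrl replicate 3 was the highest SH_ctrl library for 19 of the 21 genes.

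SH_ctrl libraries kept the same order for most collagen genes. Replicate 3 was the highest SH_ctrl library in 13 of the 14 called genes and replicate 2 the lowest in 12 of them. Replicate 3 was also the SH_ctrl library whose GC trend was nearest to that of SH_tau, and replicate 2 the library with the lowest mitochondrial share. The part of either property in the differences was not tested. In SH_tau, replicates 1 and 2 were each highest for 7 of the 14 called genes, and replicate 3 was highest for 0 of them. How often all tested genes kept these orders was not counted.

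Beaded filament (type VI) genes held the largest share of collagen expression. These filaments surround cells and link them to the surrounding matrix, and their core chains are encoded by COL6A1, COL6A2 and COL6A3. COL6A2 measured 163, 126 and 141 CPM in SH_tau, against 58.9, 56.2 and 89.4 CPM in SH_ctrl. The groups did not overlap and COL6A2 rose by a log2 fold change of 1.07 (SE 0.21, edgeR adjusted p = 0.0155), or 0.67 with the GC trend removed (edgeR adjusted p = 0.0416). COL6A1, which lies with COL6A2 and COL18A1 between positions 45405165 and 46132848 of chromosome 21 (GRCh38), stood at 66.8, 84.1 and 79.1 CPM in SH_tau, against 47.2, 39.4 and 63.3 CPM in SH_ctrl. Its groups were also apart, but the rise was smaller (log2 fold change 0.62, SE 0.20, edgeR adjusted p = 0.0712) and the call was lost with the GC trend removed (0.28, edgeR adjusted p = 0.315). COL6A3, the third core chain, was almost absent, with 9, 3 and 3 reads in SH_tau and 1, 3 and 3 reads in SH_ctrl. COL6A6 had 1, 5 and 3 reads in SH_tau and 8, 3 and 12 in SH_ctrl, and COL6A5 had none. Together COL6A1 and COL6A2 made up 51.7%, 47.9% and 50.6% of collagen CPM in SH_tau and 51.4%, 55.5% and 52.0% in SH_ctrl, so their share of the collagen total overlapped between groups while their level did not. Without SH_ctrl replicate 1 neither gene passed the test.

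The window before the annotated start of COL6A2 is shown because this gene had the highest level per length of all collagen genes. It spans chr21:46097862-46098111 on the plus strand (RefSeq, GRCh38.p14), with capitals marking the GC box letters GGGCGG on either strand.
COL6A2: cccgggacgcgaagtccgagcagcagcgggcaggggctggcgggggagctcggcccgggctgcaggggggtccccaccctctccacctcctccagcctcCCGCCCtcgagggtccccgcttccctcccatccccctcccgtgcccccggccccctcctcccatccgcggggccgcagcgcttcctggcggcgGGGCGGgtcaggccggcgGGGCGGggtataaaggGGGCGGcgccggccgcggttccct
The 250 bases hold 4 GC boxes, no CCAAT and a GC content of 79.6%. Letters such as these are matches in a window and not measured binding sites.

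Type IV collagen, the scaffold of basement membranes, was represented by COL4A1 and COL4A2, the chains found in nearly all basement membranes. COL4A2 measured 49.96, 30.7 and 31.4 CPM in SH_tau, against 15.8, 13.5 and 19.5 CPM in SH_ctrl, and rose by a log2 fold change of 1.20 (SE 0.22, edgeR adjusted p = 0.0127). COL4A1 measured 22.01, 19.0 and 17.1 CPM in SH_tau, against 9.99, 9.51 and 12.7 CPM in SH_ctrl, and rose by 0.85 (SE 0.19, edgeR adjusted p = 0.0217). For both genes the groups were apart, and SH_tau replicate 1 was the highest library. Both calls held with the GC trend removed (0.87 with edgeR adjusted p = 0.0304 for COL4A2, 0.71 with edgeR adjusted p = 0.0353 for COL4A1) and both were lost without SH_ctrl replicate 1. The tissue-restricted chains of glomerular and other specialised basement membranes gave no such signal. COL4A3, COL4A5 and COL4A6 had no read, and COL4A4 had 1 read, in SH_tau replicate 1.

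Type IV genes lie in head-to-head pairs that are read in opposite directions from a shared stretch of DNA. In the RefSeq annotation 126 bases separate the starts of COL4A1 and COL4A2, 418 those of COL4A3 and COL4A4, and 379 those of COL4A5 and COL4A6. The COL4A1-COL4A2 stretch is shown because both of its genes were called higher and the other pairs were silent or nearly so. It spans chr13:110307158-110307283 on the plus strand (GRCh38.p14), with COL4A2 read to the right and COL4A1 to the left, and capitals mark CCAAT and GGGCGG.
COL4A1-COL4A2: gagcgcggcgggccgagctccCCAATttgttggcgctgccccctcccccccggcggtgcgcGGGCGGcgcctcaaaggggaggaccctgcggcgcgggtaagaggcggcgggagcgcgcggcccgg
It holds 1 CCAAT and 1 GC box, and 80.2% of its bases are G or C. In GENCODE 44 the COL4A2 gene reaches into COL4A1 on the opposite strand, and the sources used here do not say whether reads were counted by strand.

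Among FACIT genes, 3 of 5 tested genes were called higher, with log2 fold changes of 0.27 to 3.86. The upper end was COL22A1, which entered the test only through SH_tau. Without it the upper end was 2.27 for COL9A2, while fibrillar genes ranged from -0.12 to 2.18. COL9A2, a chain of type IX collagen from the surface of cartilage fibrils, measured 16.6, 17.5 and 15.8 CPM in SH_tau, against 3.37, 1.91 and 5.18 CPM in SH_ctrl. Each SH_tau library held at least 3 times the highest SH_ctrl value, and the log2 fold change of 2.27 (SE 0.30, edgeR adjusted p = 0.00443) was 1.92 with the GC trend removed (edgeR adjusted p = 0.00598). COL9A2 stayed called in all 24 alternative fits, with a log2 fold change of 1.68 to 2.66. COL9A1, another type IX chain, measured 1.78, 1.14 and 1.47 CPM in SH_tau, against 0.217, 0.543 and 0.477 CPM in SH_ctrl, and rose by 1.81 (SE 0.38, edgeR adjusted p = 0.0184). COL9A1 had 53, 27 and 40 reads in SH_tau, against 7, 23 and 14 reads in SH_ctrl. The SH_ctrl libraries alone would not have passed it through the filter on low counts. At 44.5% its transcript had the lowest GC content of the tested collagen genes, and removal of the GC trend gave a log2 fold change of 1.92 (edgeR adjusted p = 0.024). The remaining type IX chain, COL9A3, stood apart from both. It measured 4.47, 5.72 and 5.17 CPM in SH_tau, against 3.71, 3.12 and 5.93 CPM in SH_ctrl, and its groups overlapped. Its log2 fold change was 0.27 (95% interval -0.31 to 0.85, edgeR adjusted p = 0.524) and turned to -0.05 with total-count scaling and -0.14 with the GC trend removed.

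COL22A1, a FACIT collagen of tissue junctions such as that between muscle and tendon, had the largest log2 fold change of the tested collagen genes (3.86, SE 0.50, edgeR adjusted p = 0.00418) at a very low level. It had 34, 20 and 31 reads in SH_tau, against 3, 1 and 3 reads in SH_ctrl, and entered the test only through SH_tau, so that a difference was built into its inclusion. COL22A1 kept its call in all 23 alternative fits that tested it. COL16A1 measured 9.64, 15.8 and 14.1 CPM in SH_tau, against 8.45, 5.29 and 13.3 CPM in SH_ctrl. These groups overlapped, and COL16A1 was not called (log2 fold change 0.56, 95% interval -0.10 to 1.21, edgeR adjusted p = 0.242). Of the 5 untested FACIT genes, COL20A1 stood out after its values were seen, with 7, 38 and 37 reads in SH_tau, against 4, 2 and 5 reads in SH_ctrl. SH_tau replicate 1 was close to the SH_ctrl libraries there, and COL20A1 was called higher only in fits where the filter on low counts let it in. COL19A1 had 0 to 3 reads per library, COL12A1 a single read, and COL14A1 and COL21A1 none.

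The window before the annotated COL9A2 start is shown because this gene had the strongest change at a well-measured level. It is chr1:40317287-40317536, read on the minus strand (RefSeq, GRCh38.p14), with GGGCGG or its reverse complement in capitals.
COL9A2: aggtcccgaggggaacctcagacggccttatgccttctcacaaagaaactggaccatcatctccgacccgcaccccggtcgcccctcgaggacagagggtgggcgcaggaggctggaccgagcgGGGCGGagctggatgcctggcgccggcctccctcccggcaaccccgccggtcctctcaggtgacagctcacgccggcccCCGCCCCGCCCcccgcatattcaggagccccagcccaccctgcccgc
The window holds 3 GC boxes, a pair of which share a base, no CCAAT and 71.6% G or C.

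Fibrillar genes divided into a group that rose and a group that did not pass the test. COL5A1, a chain of the type V collagen on which fibrils are started, measured 3.36, 5.42 and 5.17 CPM in SH_tau, against 0.866, 0.496 and 1.77 CPM in SH_ctrl. It rose by a log2 fold change of 2.18 (SE 0.40, edgeR adjusted p = 0.0119) without overlap between the groups. COL1A1, the main chain of type I collagen in skin and bone, measured 6.11, 4.96 and 4.55 CPM in SH_tau, against 0.928, 0.755 and 2.18 CPM in SH_ctrl, and rose by 2.04 (SE 0.36, edgeR adjusted p = 0.0103). Its usual partner COL1A2 had no read in any SH_tau library and 1, 1 and 0 reads in SH_ctrl. COL11A2, a chain of the type XI collagen of cartilage fibrils, measured 18.3, 22.3 and 19.2 CPM in SH_tau, against 8.94, 6.07 and 13.4 CPM in SH_ctrl. It rose by 1.07 (SE 0.26, edgeR adjusted p = 0.0272). With the GC trend removed the 3 genes remained called, with log2 fold changes of 1.93 for COL5A1, 1.75 for COL1A1 and 0.75 for COL11A2. None of them passed without SH_ctrl replicate 1, where COL5A1 had a log2 fold change of 2.07 (edgeR adjusted p = 0.105) and COL1A1 1.85 (edgeR adjusted p = 0.101).

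The other fibrillar genes were not called or were too low to be tested. COL3A1, which accompanies type I collagen in vessels and soft tissue, measured 8.77, 10.1 and 12.5 CPM in SH_tau, against 8.79, 6.49 and 10.02 CPM in SH_ctrl. The groups overlapped, and the log2 fold change of COL3A1 was 0.31 (95% interval -0.16 to 0.79, edgeR adjusted p = 0.363) and -0.01 with total-count scaling. Per gene length, COL3A1 averaged 1.36 RPKM in SH_tau and 1.37 RPKM in SH_ctrl, above the COL1A1 means of 0.483 RPKM in SH_tau and 0.143 RPKM in SH_ctrl. That of COL27A1 was 1.26 (95% interval 0.17 to 2.36, edgeR adjusted p = 0.122), with SH_tau replicate 1 at 0.84 CPM, below SH_ctrl replicate 3 at 1.26 CPM. COL5A2, the partner of COL5A1 in type V collagen, gave the only negative value among the tested collagen genes (-0.12, 95% interval -0.90 to 0.66, edgeR adjusted p = 0.851). Its levels were 0.672, 0.799 and 0.661 CPM in SH_tau and 0.99, 0.826 and 0.477 CPM in SH_ctrl. COL2A1, the fibrillar collagen of cartilage, had 2 to 9 reads per library, and COL11A1, COL24A1 and COL5A3 had 0 to 4.

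The window before the annotated COL5A1 start is shown as an example of a fibrillar gene that rose. It spans chr9:134641553-134641802 on the plus strand (RefSeq, GRCh38.p14), with GGGCGG or its reverse complement in capitals.
COL5A1: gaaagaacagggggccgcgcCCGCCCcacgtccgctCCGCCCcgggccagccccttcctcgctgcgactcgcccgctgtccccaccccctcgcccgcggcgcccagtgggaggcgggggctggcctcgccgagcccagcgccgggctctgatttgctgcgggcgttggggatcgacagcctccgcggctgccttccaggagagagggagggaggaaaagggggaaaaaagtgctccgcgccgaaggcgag
It contains 2 GC boxes and no CCAAT at 74.0% G or C. Of the 44 collagen genes, 32 had a promoter window in the RefSeq table. A GC box lay in 18 of these 32 windows (56.3%) and in 42.3% of all 27305 windows, and CCAAT lay in 28.1% and 33.0%. Among collagen genes with a window, 8 of 11 called higher, 3 of 4 tested but not called and 7 of 17 not tested held a GC box. The windows of COL4A1 and COL4A2 overlap and share letters, and these counts are a description without a test.

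**Figure D2:**
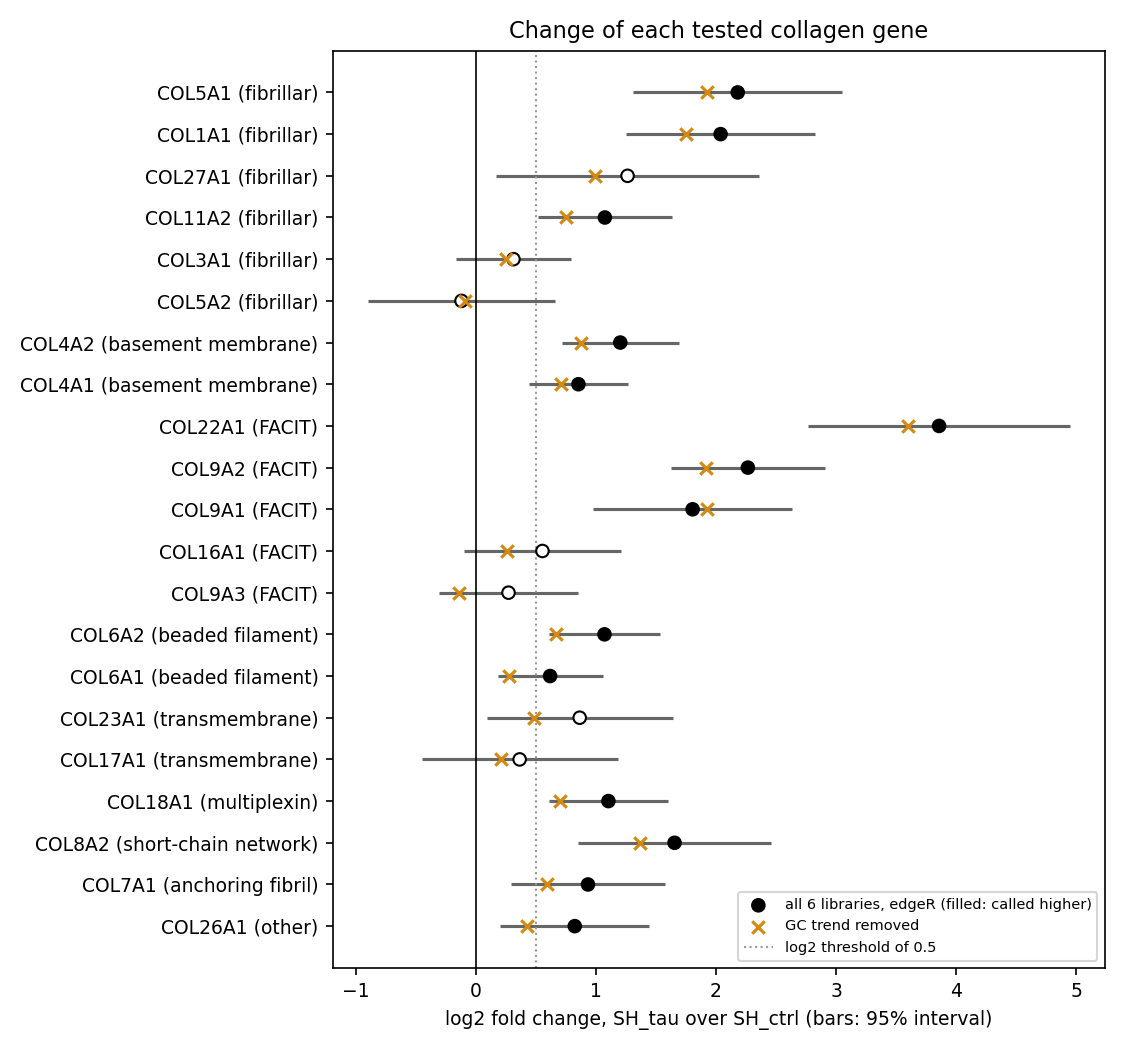
Log2 fold change of SH_tau over SH_ctrl for the 21 tested collagen genes, grouped by class, with 95% intervals. Filled circles mark the 14 genes called higher and crosses the value with the GC trend removed, which lay below the circle for most genes but above it for COL9A1 and COL5A2.

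Neither tested transmembrane gene was called. COL23A1 measured 1.31, 1.35 and 1.21 CPM in SH_tau, against 0.65, 0.448 and 1.06 CPM in SH_ctrl, which did not overlap but missed the threshold (log2 fold change 0.87, 95% interval 0.09 to 1.64, edgeR adjusted p = 0.13). COL17A1, a component of the hemidesmosomes of epithelia, measured 0.974, 0.967 and 1.65 CPM in SH_tau, against 0.742, 0.684 and 1.40 CPM in SH_ctrl (log2 fold change 0.37, 95% interval -0.45 to 1.18, edgeR adjusted p = 0.544). SH_ctrl replicate 3 was the highest SH_ctrl library for both genes, and without it COL23A1 was called. COL13A1, a collagen of the neuromuscular junction, had 0 to 2 reads per library. COL25A1, the collagen first isolated from amyloid plaques, had none.

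Single genes of smaller classes rose as well. COL18A1, the multiplexin of basement membranes whose end fragment is endostatin, measured 45.2, 58.2 and 52.9 CPM in SH_tau, against 22.1, 17.4 and 33.2 CPM in SH_ctrl (log2 fold change 1.10, SE 0.23, edgeR adjusted p = 0.0175). COL8A2, a short-chain network collagen of the corneal endothelium, measured 3.16, 3.70 and 3.05 CPM in SH_tau, against 0.773, 0.614 and 1.81 CPM in SH_ctrl (log2 fold change 1.66, SE 0.37, edgeR adjusted p = 0.0221). Both genes had separate groups and stayed called with the GC trend removed, and COL18A1 overlaps SLC19A1 on the opposite strand. COL7A1, which forms the anchoring fibrils of skin, measured 13.2, 21.3 and 20.7 CPM in SH_tau, against 10.2, 5.48 and 13.3 CPM in SH_ctrl. SH_tau replicate 1 lay just below SH_ctrl replicate 3, and the call (log2 fold change 0.93, SE 0.30, edgeR adjusted p = 0.0656) was lost with the GC trend removed (0.59, edgeR adjusted p = 0.201). COL26A1 measured 5.98, 3.49 and 3.08 CPM in SH_tau, against 2.13, 2.48 and 2.49 CPM in SH_ctrl. Its value owed much to SH_tau replicate 1, and its log2 fold change of 0.82 (SE 0.28, edgeR adjusted p = 0.0837) was 0.49 without that library (edgeR adjusted p = 0.237) and 0.42 with the GC trend removed (edgeR adjusted p = 0.363). COL15A1 and COL28A1 were too low to be tested, and COL10A1 and COL8A1 had no read.

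By class, the median log2 fold change of tested genes was 1.81 for FACIT (5 genes), 1.17 for fibrillar (6 genes), 1.03 for basement membrane (2 genes), 0.85 for beaded filament (2 genes) and 0.62 for transmembrane collagens (2 genes), against -0.03 for all tested genes. With the GC trend removed the medians were 1.92, 0.87, 0.79, 0.47 and 0.35 in the same order of classes. Calls numbered 3 of 5, 3 of 6, 2 of 2, 2 of 2 and 0 of 2, and the difference between classes was not tested. The FACIT values include COL22A1, which entered the test only through SH_tau. Without it the FACIT median was 1.18 (1.09 with the GC trend removed) and 2 of 4 genes were called. Those 4 genes still include COL9A1, which the SH_ctrl libraries alone would not have passed through the filter on low counts. Summed CPM separated the groups for fibrillar genes (38.4, 46.2 and 44.5 in SH_tau, 21.4, 15.2 and 29.4 in SH_ctrl) and for basement membrane genes (72.0, 49.7 and 48.6 in SH_tau, 25.8, 23.0 and 32.2 in SH_ctrl). FACIT sums were 33.9, 42.7 and 39.1 CPM in SH_tau and 15.96, 10.98 and 25.1 CPM in SH_ctrl. For the transmembrane genes the sums of 2.32, 2.35 and 2.94 CPM in SH_tau overlapped the 1.42, 1.13 and 2.52 CPM of SH_ctrl.

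**Figure D3:**
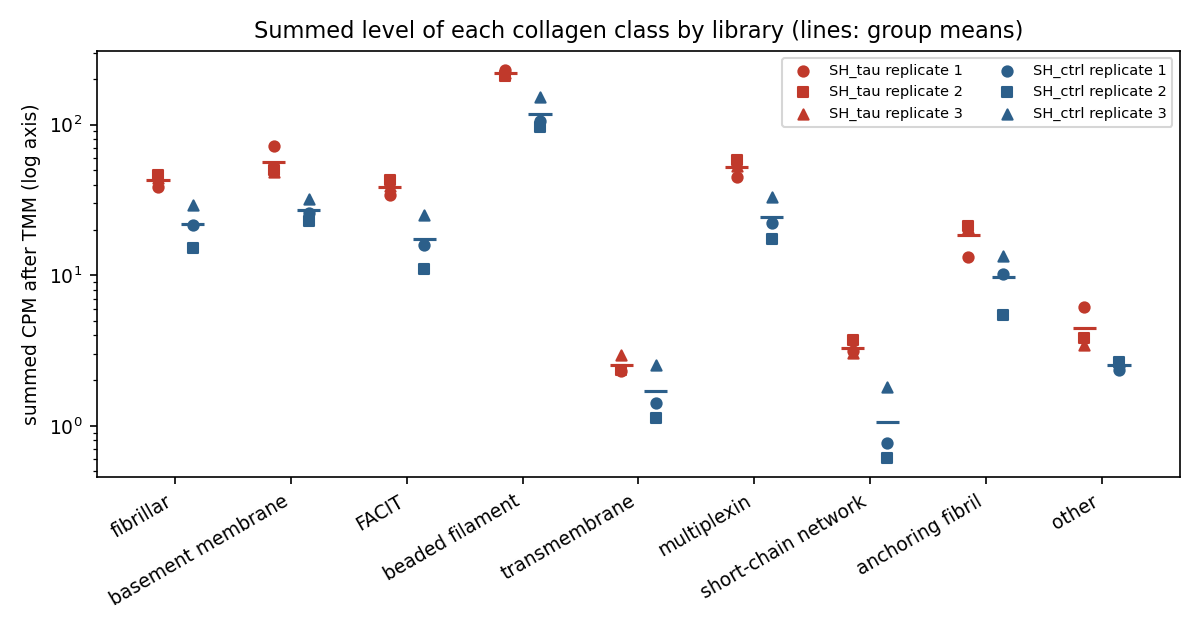
Summed CPM (log axis) of each collagen class in the 3 SH_tau (red) and 3 SH_ctrl (blue) libraries, with lines at the group means. Beaded filament genes summed to 210 to 230 CPM in SH_tau and 95.8 to 153 CPM in SH_ctrl, and the transmembrane and anchoring fibril sums overlapped between groups.

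The ratio of reads per kilobase of chains that assemble into a common type, which does not depend on library scaling, is given for 4 pairs. These were chosen after their values were seen and are described without a test. COL9A2 to COL9A3 stood at 4.24, 3.50 and 3.50 in SH_tau, against 1.04, 0.703 and 1.0003 in SH_ctrl. COL5A1 to COL5A2 stood at 3.20, 4.34 and 5.01 in SH_tau, against 0.56, 0.384 and 2.38 in SH_ctrl. In both pairs the first chain was the more abundant per length in every SH_tau library. In SH_ctrl the COL9A2 ratio was close to 1 or below it, and the COL5A1 ratio was above 1 only in replicate 3. Differences were smaller for COL6A2 to COL6A1 (2.42, 1.48 and 1.77 in SH_tau, 1.24, 1.42 and 1.40 in SH_ctrl) and COL4A2 to COL4A1 (2.14, 1.52 and 1.72 in SH_tau, 1.49, 1.33 and 1.44 in SH_ctrl), where SH_tau replicate 2 nearly touched SH_ctrl. The GC content of the chains compared was 64.8% and 67.4% for COL9A2 and COL9A3, 60.2% and 48.3% for COL5A1 and COL5A2, 66.4% and 63.5% for COL6A2 and COL6A1, and 61.8% and 55.2% for COL4A2 and COL4A1. COL5A2 rested on 14 to 35 reads per library, and COL9A3 overlaps TCFL5 on the opposite strand.

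**Figure D4:**
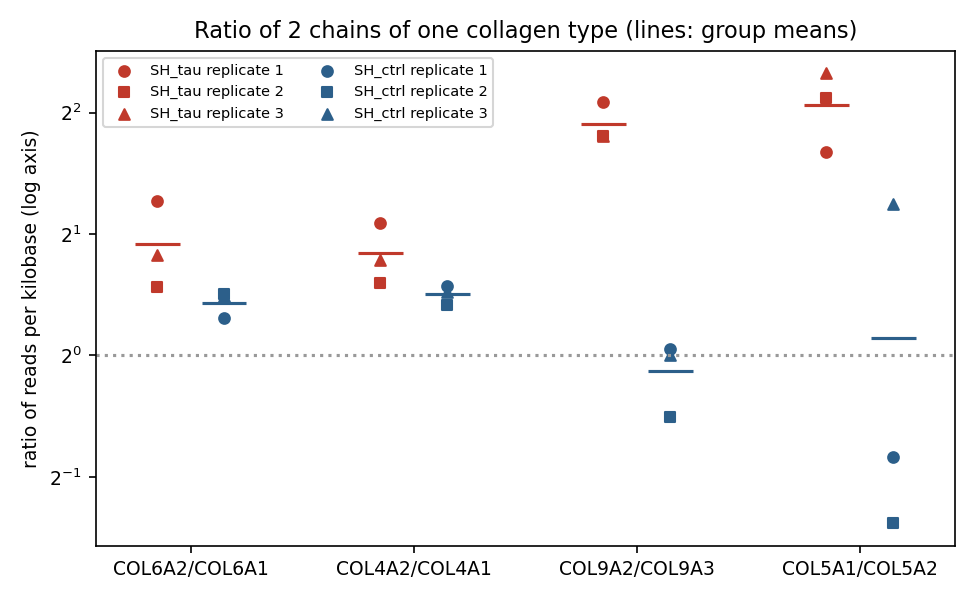
Ratio of reads per kilobase (log axis) for 4 pairs of chains of a common collagen type in the 3 SH_tau (red) and 3 SH_ctrl (blue) libraries, with lines at the group means. The COL9A2 to COL9A3 ratio averaged 3.75 ± 0.429 in SH_tau and 0.914 ± 0.184 in SH_ctrl (SD, n = 3 each).

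The GC content of the collagen genes is given beside the differences because the libraries differed in their GC trend. The median GC content was 61.8% for the tested collagen genes (range 44.5% to 67.4%) and 47.9% for all tested genes. Among all tested genes of 55 to 65% GC, 18.7% were called higher and 1.25% lower, whereas 11 of the 14 tested collagen genes in that range were called higher. Over all tested genes the log2 fold change rose with GC content (Spearman rho 0.47 across genes), and over the 21 tested collagen genes rho was -0.04, both as descriptions of genes measured in the same libraries. Those 21 genes include COL22A1 and COL9A1, the latter with the lowest GC content, which the SH_ctrl libraries alone would not have passed through the filter on low counts. The value of -0.04 therefore cannot tell how far the collagen differences follow GC content. GC content was similar in called and uncalled collagen genes, with medians of 62.6% and 61.3%. The 23 untested genes had a median of 47.3%. The part of the GC trend in the differences was not tested beyond the fits with the trend removed.

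**Figure D5:**
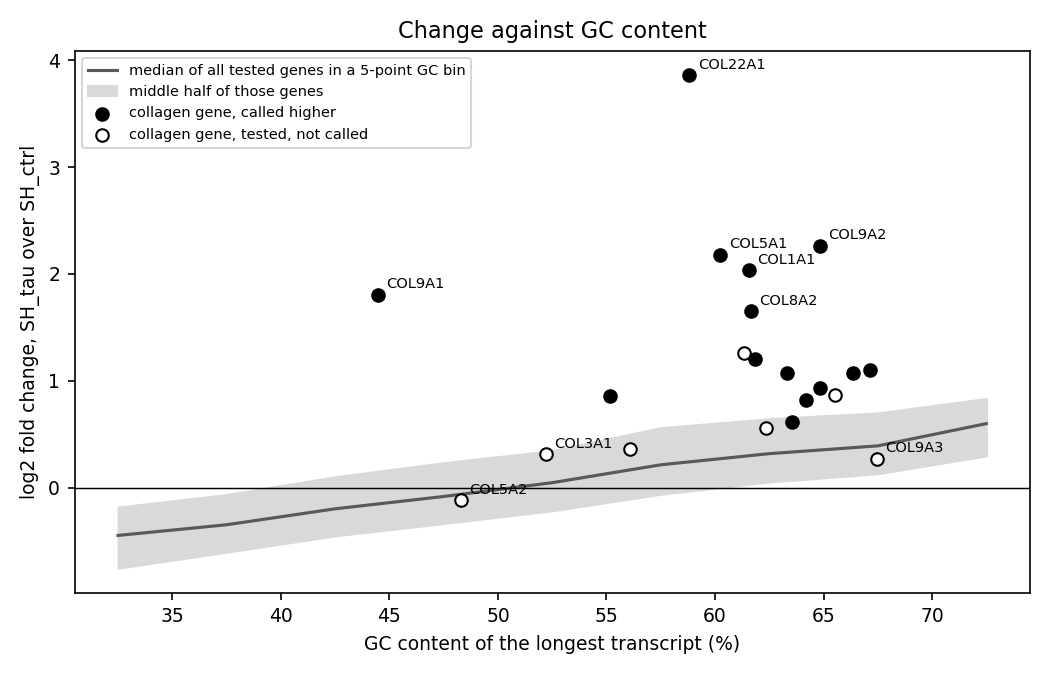
Log2 fold change of SH_tau over SH_ctrl against the GC content (%) of each gene's longest transcript for the 21 tested collagen genes, filled where called higher. The line and band give the median and the middle 50% of all tested genes per GC bin, whose median was 0.32 in the bin centred on 62.5%. COL6A1 was the called gene that lay within the band.

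Genes of the collagen pathway, from 4 lists, were called in both directions, with 6 of 39 tested genes higher (15.4%) and 4 lower (10.3%). These shares are near the 9.37% and 8.42% of all tested genes, and with the GC trend removed 5 were higher and 3 lower. Among 16 tested hydroxylases, glycosyltransferases and chaperones, which modify and fold the chains, 1 was higher and 3 were lower (median log2 fold change -0.05). FKBP10, a prolyl isomerase chaperone of procollagen, measured 128, 134 and 121 CPM in SH_tau, against 65.5, 67.1 and 80.3 CPM in SH_ctrl, and rose by 0.85 (edgeR adjusted p = 0.0157). P4HA1, a catalytic subunit of prolyl 4-hydroxylase, measured 24.3, 15.4 and 20.8 CPM in SH_tau, against 38.6, 29.1 and 32.03 CPM in SH_ctrl, and fell by 0.72 on the log2 scale (edgeR adjusted p = 0.0442). PPIB, a partner of the prolyl 3-hydroxylase complex, fell by 0.85 (edgeR adjusted p = 0.0605). It measured 196, 137 and 172 CPM in SH_tau, against 258, 441 and 212 CPM in SH_ctrl, where replicate 2 was well above the others. TMEM38B, an endoplasmic reticulum ion channel needed for collagen modification in bone, fell by 0.84 (edgeR adjusted p = 0.0742). Both PPIB and TMEM38B were without overlap between groups. Over 24 alternative fits the call was lost in 7 for FKBP10, 11 for P4HA1, 11 for PPIB and 15 for TMEM38B. With the GC trend removed FKBP10 and PPIB stayed called, whereas P4HA1 (-0.49, edgeR adjusted p = 0.16) and TMEM38B (-0.40, edgeR adjusted p = 0.388) did not. SERPINH1, a collagen chaperone of this list, was then called lower (-0.60, edgeR adjusted p = 0.0403).

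Of 12 tested genes for export and propeptide processing, 4 were higher and none lower (median 0.44). PCOLCE2, an enhancer of C-propeptide removal, measured 3.16, 2.69 and 3.08 CPM in SH_tau, against 0.835, 1.20 and 1.60 CPM in SH_ctrl, and rose by 1.30 (edgeR adjusted p = 0.0221). FURIN, a proprotein convertase, rose by 0.86 (12.03, 9.42 and 7.93 CPM in SH_tau, 5.66, 4.67 and 5.89 CPM in SH_ctrl, edgeR adjusted p = 0.0323). BMP1, the protease that removes the C-propeptide of fibrillar procollagens, rose by 0.71 (25.4, 36.5 and 37.2 CPM in SH_tau, 19.1, 17.2 and 24.4 CPM in SH_ctrl, edgeR adjusted p = 0.0481). All 3 had separate groups. With the GC trend removed PCOLCE2 stayed called, FURIN (0.53, edgeR adjusted p = 0.12) and BMP1 (0.41, edgeR adjusted p = 0.206) did not, and the list had 2 genes higher with a median of 0.20. None of the 4 tested lysyl oxidases, the enzymes that start cross-linking, was called, with LOXL3 at 0.70 (edgeR adjusted p = 0.11) and LOXL2 at 0.42 (edgeR adjusted p = 0.177). Among 7 tested collagen receptors the called genes went opposite ways. MRC2, an endocytic receptor that takes up collagen fragments, measured 108, 75.9 and 68.4 CPM in SH_tau, against 43.4, 33.2 and 51.7 CPM in SH_ctrl, and rose by 0.98 (edgeR adjusted p = 0.0234). DDR2, a receptor tyrosine kinase activated by fibrillar collagen, measured 40.0, 36.0 and 35.8 CPM in SH_tau, against 108, 80.1 and 70.3 CPM in SH_ctrl, and fell by 1.21 (edgeR adjusted p = 0.00766). With the GC trend removed MRC2 and DDR2 stayed called, and ITGA1 was called higher (0.55, edgeR adjusted p = 0.086). With total-count scaling, which shifted the median of all genes by -0.34, the 4 lists had 1 gene higher and 9 lower. In that fit 10 collagen genes remained higher and none was lower, and 3.33% of all tested genes were higher and 17.2% lower. Without SH_ctrl replicate 1 the lists had none higher and 1 lower, and 1.05% of all tested genes were higher and 0.417% lower.

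Collagen-producing cell types were looked for through their markers. Of 12 fibroblast markers, 7 were tested and 2 were higher, PRRX2 by 1.92 (edgeR adjusted p = 0.0214) and PDGFRB by 0.69 (edgeR adjusted p = 0.0345). The share higher over all tested genes was 9.37%. After removal of the GC trend PDGFRB lost its call (0.46, edgeR adjusted p = 0.122), PRRX2 kept it and TWIST1 was called lower (-0.61, edgeR adjusted p = 0.0733). Their summed level of 229 to 336 CPM in SH_tau overlapped the 242 to 264 CPM of SH_ctrl, and PRRX1 and POSTN had no read in any library. Mesenchymal neuroblastoma markers are the genes of the less differentiated state of this tumour. They summed to 699.6 to 765 CPM in SH_tau and 674 to 771 CPM in SH_ctrl. Of 7 tested, only TGFBI was called, higher by 2.04 (edgeR adjusted p = 0.0232), and YAP1, WWTR1 and ANXA1 were close to 0 CPM. TGFBI had 22, 20 and 18 reads in SH_tau, against 7, 3 and 8 reads in SH_ctrl. It entered the test only through SH_tau, so that a difference was built into its inclusion. Among the Schwann cell markers, SOX10, FOXD3 and CDH19 had no read, and ERBB3 was higher by 1.85 (edgeR adjusted p = 0.0092). The summed Schwann list was 4.95 to 6.18 CPM in SH_tau and 3.19 to 3.85 CPM in SH_ctrl. Of 9 tested noradrenergic markers, 2 were called lower and 0 higher, and the share lower over all tested genes was 8.42%. DBH, which converts dopamine to noradrenaline, was lower by a log2 fold change of -1.07 (edgeR adjusted p = 0.0344). DBH lost its call in 7 of 24 alternative fits, with log2 fold changes of -1.72 to -0.41. The part of these marker genes in the collagen differences was not tested.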

How the data were processed

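RNA-seq of 3 SH_tau and 3 SH_ctrl samples was analysed. The deposited count, RPM and RPKM values were made by the authors with bcl2fastq 1.8.4, TopHat2 2.1.0 on GRCh38 and featureCounts 1.5.0, per the labels and the study's methods, with later steps in R 3.4.1. The labels and the methods name different strand-specific library kits, and the strand setting of the counting is not given in the sources used here. RPM values deposited by the authors are counts divided by the library total, and their RPKM values are RPM per kilobase of gene. How reads in overlapping genes were assigned is likewise not given.

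Counts were tested in R 4.3.3 with edgeR 4.0.16 (TMM scaling, its filter for low counts, quasi-likelihood F test on group over all 16778 tested genes, Benjamini-Hochberg adjustment). The tests were tested on simulated data. Alternatives used limma 3.58.1, DESeq2 1.42.0, other scalings and filters, RPM with a pseudocount of 0.5, a replicate block, the mitochondrial share, and a GC trend removed by lowess (span 0.3) in each library. GC content and positions came from GENCODE 44, in which 57754 of 58395 IDs were found, including all 44 collagen genes. 1 CPM corresponded to 23.8 to 42.4 reads. Intervals and floors cover counting error or the fit only.

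Every collagen gene was accounted for. Values per library were given for called genes and for those averaging 10 CPM or more in SH_tau or SH_ctrl, and up to 3 called genes per direction were named from each other list (the 2 of highest CPM where none was called). COL5A2, COL9A3, COL20A1, COL23A1 and COL17A1 were added for their values, and SERPINH1, ITGA1 and TWIST1 for calls gained with the GC trend removed. Members and lists were chosen with earlier results of these data known. CTAGE5 was not found by that symbol. Results for some marker genes are not reported here. Promoter windows came from RefSeq (GRCh38.p14) and were searched for GGGCGG and CCAAT on both strands.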

Additional observations from a re-analysis of the deposited data

How the results depend on the processing

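Collagen genes called higher numbered 14, and 0 were called lower in the main comparison and in all 24 alternatives. The number higher was 15 with DESeq2, 13 with limma-voom, 14 with DESeq2's size factors, 10 with total counts or limma on RPM, 17 without a filter, 13 at 1 CPM or more, 11 at an adjusted p under 0.05, 11 with the GC trend removed and 9 when the mitochondrial share entered the model. Deviations of same-numbered samples had correlations of -0.15, -0.46 and 0.17. With 3 libraries per group these values cannot decide whether the numbers pair the samples. The replicate block gave 14, with COL27A1 in place of COL26A1, and the block with the GC trend removed gave 7. Leaving out 1 library gave 2 to 18 (2 to 13 with the GC trend removed, added after seeing the data). The lowest count, 2, came without SH_ctrl replicate 1, where 179 genes of all kinds were called higher and 71 lower, against 1572 and 1413 with all libraries.

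By class, leaving out 1 library gave 0 to 4 fibrillar, 0 to 2 basement membrane, 2 to 5 FACIT, 0 to 2 beaded filament and 0 to 1 transmembrane genes (with the GC trend removed 0 to 4, 0 to 2, 2 to 4, 0 to 1 and 0). Basement membrane genes numbered 1 with RPM, total counts or the GC trend removed with the replicate block. FACIT genes numbered 5 without a filter. Beaded filament genes numbered 1 with RPM, total counts, an adjusted p under 0.05, the GC trend removed or the mitochondrial share, and 0 with the GC trend removed and the replicate block. Genes of the pathway lists, 6 higher and 4 lower, numbered 1 and 9 with RPM or total counts, 1 and 1 with the GC trend removed and the replicate block, and 0 to 9 and 1 to 6 without 1 library (0 to 6 and 0 to 4 with the GC trend removed, for example 3 higher without SH_tau replicate 1). Of these, 2 were lower at an adjusted p under 0.05 and 1 with the mitochondrial share. MAPT had a negative log2 fold change in every alternative (-0.69 to -0.06), with an adjusted p of 0.0634 to 0.903 over them, and was called with the GC trend removed (-0.55); without 1 library it was -0.47 to -0.17 (-0.67 to -0.34 with the trend removed, and called at -0.63 without SH_ctrl replicate 3). Total counts shifted the median of all genes by -0.34 and called 559 higher and 2886 lower, RPM 572 and 2693, the GC trend removed with the block 434 and 177, the mitochondrial share 721 and 601, and the replicate block 1286 and 925. The causes were not tested, except that leaving out a library leaves fewer samples. Collagen genes expressed in SH_ctrl numbered 12 to 20 over 7 alternatives, against 15. At this depth, 23 collagen genes had too few reads, or none, to be tested.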
